A study of Mus musculus with 24 samples.

Results

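Erg, Hhex, Lyl1, Lmo2, Tal1, Mef2c, Meis1, Hoxa9 and Bcl11a are transcription factors and cofactors that blood stem cells and early progenitors carry and that developing lymphocytes retain to different degrees. They are 9 of the 34844 gene names on the array. Every non-control probe that carries one of these names in the spot files was taken, which gave 13 of 55681 probes. Erg and Hoxa9 had 2 probes each, Bcl11a had 3, and the other 6 genes had 1. Sorted mouse cells gave 24 samples, each run on 1 single-colour Agilent array after whole-transcript amplification of polyadenylated RNA, to ask how the niche of lymphoid progenitors shapes them.

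The thymocytes of wild-type thymus, which is heterozygous for Foxn1 (+/-) and is called wt here, were DN3 cells, an early CD4 CD8 double-negative stage (n = 3), DP cells, which carry both CD4 and CD8 (n = 3), SP4 cells with CD4 alone (n = 3) and SP8 cells with CD8 alone (n = 3). Transgenic thymus with a Foxn1-deficient genotype (-/-), called tg here, gave DP cells (n = 4) and B cells without surface IgM, called IgM-negative (n = 2). The labels name neither the transgenes nor their promoters, so a difference between tg and wt covers the transgenes and the loss of Foxn1 together. B cells with surface IgM (n = 3) and without it (n = 3) came from wild-type fetal liver. Neither age, strain nor the number of animals was given. In the labels the cell type of the SP4 samples mentions SP8 too, and the title decided their group. The titles of wt DP arrays 3 and 3A share a number, as do those of tg DP arrays 6, 6A and 6B. The correlation over all probes was 0.938 for wt DP 3 and 3A, against 0.931 and 0.935 for wt DP 2 with each of them. It was 0.902 to 0.952 among tg DP 6, 6A and 6B, against 0.863 to 0.902 for tg DP 4 with each of them. Nothing in the labels ties replicates to separate animals, and the p-values therefore reflect the spread among these arrays alone, which may be technical.

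Lymphocytes descend from stem cells that use a shared set of regulators. Lmo2 is a LIM-domain adaptor that bridges the basic helix-loop-helix factors Tal1 or Lyl1 to other DNA-binding proteins, Erg binds ETS sites beside them, and Meis1 and Hoxa9 are homeodomain proteins that bind DNA together. As precursors commit to the T lineage, most of these genes are turned down after the earliest thymic stages, while Mef2c and Bcl11a are known for their part in B cell development and Hhex for a part in early lymphoid cells. Persistent expression of Lmo2, Tal1, Lyl1, Mef2c or the Hoxa genes is a known feature of T cell leukaemias.

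What each probe reads matters here, since the amplified cDNA was primed with both random and oligo(dT) primers and the probe is the only part of a gene that is seen. Of the 13 probes, 12 cover 60 consecutive bases of build mm9. The Mef2c probe (chromosome 13, 83772788 to 83775025, plus strand) spans 2238 bases for its 60 bases. The exon or untranslated region that a probe lies in was not determined here. The last 30 bases of the Erg probes, of those that end in 6 A and of the other Bcl11a probes follow, with the final run of A in capitals. Those of the Hoxa9 probes, whose readings are also compared below, are not shown.
Erg A_55_P2015862: tacctgtgtttaaaaatagaaaccatgtcA
Erg A_55_P2113832: catttgatagagagctgccagctctgtcAA
Lmo2 A_55_P2083988: tgtttctatacaaatgtaaatcttAAAAAA
Tal1 A_55_P2106690: gactctttattgaaaaacaaaaacAAAAAA
Bcl11a A_55_P1988872: tacacccattttgtccctttattgAAAAAA
Bcl11a A_55_P1958270: gctggattccttcctgcttattcatcatAA
Bcl11a A_55_P1958275: tgtcttttaaaaagtgtgcttaacattgac
The probes of Lmo2 (chromosome 2, 103821857 to 103821916, plus strand) and Tal1 (chromosome 4, 114744219 to 114744278, plus strand) and the third Bcl11a probe (chromosome 11, 24068355 to 24068414, plus strand) each end in 6 A. Over the whole array, 1.55% of probes end in 5 or more A. Whether an A-rich end holds signal of other transcripts was not tested.

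Levels below are log2 processed signals relative to the array's own 75th percentile, so 0 is the level that 3 in 4 probes stay under, and an asterisk marks an array on which the probe was not well above background by the scanner program's flag. All 13 probes had that flag throughout at least 1 group and entered the fit, as did 52991 of the 55681 probes. On 9 of the 13 probes the flag was set on 23 or 24 of the 24 arrays. It was set on 18 arrays for Lmo2, on 17 and 14 for the Erg probes and on 14 for the third Bcl11a probe. Levels of different probes are not compared, since a probe's brightness also depends on its sequence.

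Tg B array 23 was the dimmest, with 80.5% of its probes well above background and a median processed signal of 125. The remaining 23 arrays had 87.4% to 96.6% and medians of 208 to 314. On principal component 1, which held 17.1% of the variance, the arrays tg B 23, IgM-positive 21 and tg DP 4 stood apart (310.4, 177 and 74.7, with every other array at 41.0 or less). All wt DP arrays lay on slide 2, SP8 arrays on slide 3 and SP4 arrays on slides 1 and 3. DN3 arrays lay on slides 2 and 3 and fetal liver IgM-negative arrays on slide 4. SP4 or SP8 against wt DP and DN3 against IgM-negative B cells thus shared no slide. Slide and cell type cannot be told apart there. The labelled lineages were checked on marker lists. The T cell list (9 of 10 genes on the array) averaged -0.70 to -0.04 over the 4 wt thymocyte groups and -0.50 in tg DP, against -1.43, -1.31 and -0.93 in tg, IgM-positive and IgM-negative B cells. The B cell list (9 of 10 genes on the array) averaged -1.62 to -1.22 over the wt thymocyte groups and -1.29 in tg DP, against -1.37, -1.15 and -0.63 in those B cells. The tg B cells thus lay inside the thymocyte range on the B cell list and below all thymocyte groups on the T cell list. Single markers did not all follow either. Cd3e, a chain of the T cell receptor complex, had group means of 0.52 to 0.65 in thymocytes and 0.69 to 0.90 in B cells. Cd79a, a chain of the B cell receptor complex, averaged -3.22 ± 2.11 in tg B cells (SD, n = 2), -0.67 ± 1.7 in IgM-positive and 0.40 ± 1.15 in IgM-negative B cells (SD, n = 3 each), with thymocyte group means of -2.32 to -1.09 between the tg and the fetal liver B cells.

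Erg, an ETS factor needed to maintain blood stem cells, was the member with the widest spread. The first Erg probe (chromosome 16, 95581954 to 95582013, minus strand) measured -7.51* and -7.33* on the tg IgM-negative B arrays, -4.60, -8.04* and -7.99* on the fetal liver IgM-positive B arrays, and -2.88, -3.26 and -0.17 on the fetal liver IgM-negative B arrays. Neither tg B array overlapped the fetal liver IgM-negative arrays, and 1 of the 3 IgM-positive arrays, array 19, stood apart from its group. The second Erg probe (chromosome 16, 95581811 to 95581870, minus strand) starts 143 bases away and measured -7.57* and -7.30* in tg B cells, -4.32, -7.99* and -7.94* in IgM-positive cells, and -4.05, -4.55 and -1.96 in IgM-negative cells. It gave the same arrays as undetected, so both probes were well above background on every fetal liver IgM-negative B array and on no tg B array, a pattern that 3.01% of all probes tested showed. The second probe had the flag throughout no group but IgM-negative B cells, and so entered the fit through that group alone. Its detection there was fixed by the filter and is no separate support for the first probe.

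In thymocytes the Erg signal differed widely between arrays of 1 group. The first probe measured -2.07, -3.88 and -2.09 in DN3 cells, -4.09, -1.96, -2.46 and -1.60 in tg DP cells, -3.72, -6.95* and -1.68 in wt DP cells, -4.40, -1.14 and -7.68* in SP4 cells and -1.43, -3.25 and -7.32* in SP8 cells. Every DN3 and tg DP array was well above background, and 1 of the 3 arrays in each of wt DP, SP4 and SP8 was not. The second probe measured -4.25, -5.98* and -3.86 in DN3, -5.66*, -4.04, -4.30 and -3.57 in tg DP, -5.05, -7.64* and -3.57 in wt DP, -5.73*, -2.21 and -7.60* in SP4 and -3.79, -4.33 and -7.29* in SP8 cells. The arrays low on one probe were low on the other: the flags of both probes agreed on 21 of 24 arrays, and on the 14 arrays where both were set the levels correlated with Pearson's r = 0.82 (permutation p = 0.00015, adjusted over 5 same-gene pairs 0.00075) and Spearman's rho = 0.93 (p = 1e-05, the smallest that 100000 permutations can give, adjusted p = 5e-05). The correlation was 0.83 without the 2 arrays farthest from the median and 0.96 within slide 2 (6 arrays). On the other slides under 6 arrays had both flags set. Both probes read the same cDNA of an array, so they are not replicates of each other.

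**Figure D1:**
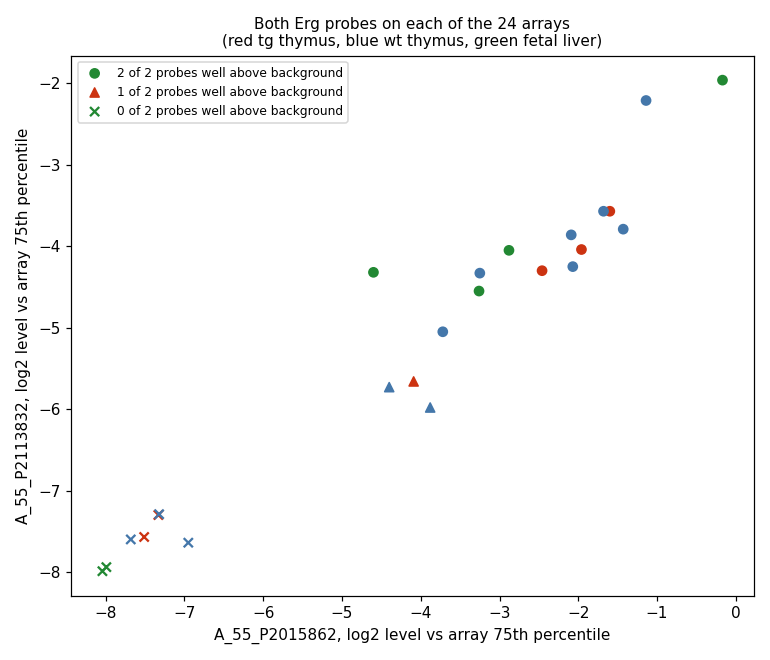
Level of the first Erg probe (x axis) against the second (y axis), both as log2 relative to the array's 75th percentile. Each of the 24 arrays is 1 point. Circles mark the 14 arrays on which both probes were well above background, triangles the 3 with 1 probe and crosses the 7 with none, which lie together at the lower left and include both tg B arrays and 2 of the 3 IgM-positive arrays.

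Between groups, no Erg difference passed the threshold of an adjusted p under 0.05 (limma, Benjamini-Hochberg over all probes). For tg against fetal liver IgM-negative B cells, the first probe averaged -7.42 ± 0.13 (SD, n = 2) and -2.11 ± 1.68 (SD, n = 3), a difference of -5.32 ± 1.84 (SE, adjusted p = 0.187), and since it was not well above background in tg B cells the fold is a bound, at least 8.70-fold lower in tg B cells. The second probe differed by -3.91 ± 1.5 (SE, adjusted p = 0.223), at least 3.26-fold lower in tg B cells. Since it entered the fit only through the IgM-negative arrays, its values against them are no support of their own. These bounds compare measured means with the detection limit of the dim arrays and make no allowance for the spread between arrays. For IgM-positive B cells of fetal liver against IgM-negative ones the differences were -4.77 ± 1.65 (SE, adjusted p = 0.561) and -3.23 ± 1.34 (SE, adjusted p = 0.624), and the arrays overlapped on the second probe. In IgM-positive cells 1 of the 3 arrays measured each probe well above background, so these sizes rest in part on signal near background. Arrays 20 and 21 shared slide 4 with all IgM-negative arrays and array 19 lay on slide 1. Within slide 4 (2 against 3 arrays) neither IgM-positive array was well above background, and the first probe was at least 12.5-fold and the second at least 4.7-fold lower in IgM-positive than in IgM-negative cells. All tg B and fetal liver IgM-negative arrays lay on slide 4, so that comparison is within 1 slide.

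Other measures were set beside the Erg signal. The 7 arrays with neither Erg probe well above background had 80.5% to 94.1% of all probes so (median 89.5%), against 88.9% to 96.6% (median 92.9%) on the 14 arrays with both. The 2 tg B arrays had 89.5% (array 22) and 80.5% (array 23). Erg is known in endothelial cells and megakaryocytes too. The summed level (log2 of the sum of linear levels) of 5 of 5 endothelial markers ran from 2.62 to 3.09 in tg B, 2.60 to 2.99 in IgM-positive and 2.74 to 3.1 in IgM-negative B cells, and that of 5 of 5 megakaryocyte markers from 2.18 to 2.31 in tg B, 2.06 to 2.27 in IgM-positive and 2.26 to 2.44 in IgM-negative B cells. Such sums weigh the brightest genes most. Averaged as the other marker lists were, the endothelial list was at -1.26, -1.30 and -1.08 in tg, IgM-positive and IgM-negative B cells. The megakaryocyte list was at -2.51, -2.27 and -2.17. All 5 endothelial genes were well above background on every B cell array, and 3 to 5 of the megakaryocyte genes were. The part of signal quality or of other cells in the Erg result was not tested, and in such bulk samples fewer cells with a transcript and less transcript per cell cannot be told apart.

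Lmo2, the adaptor of the Tal1 and Lyl1 complexes, was detected in all 8 groups, with 1 array of 6 of the groups not well above background. The Lmo2 probe measured -3.83, -4.24 and -6.37* in DN3, -4.26, -4.99, -4.19 and -3.60 in tg DP, -3.16, -4.02 and -5.76* in wt DP, -5.30*, -4.34 and -3.75 in SP4 and -4.17, -3.60 and -4.40 in SP8 cells. Among B cells the values were -4.59 and -7.16* in tg, -3.54, -4.65 and -6.02* in IgM-positive and -4.41, -4.62 and -5.37* in IgM-negative cells. Every pair of neighbours in the order of its group means overlapped, and the lowest value was that of tg B 23.

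Lyl1, the helix-loop-helix factor that specifies early lymphoid progenitors, was well above background on all 24 arrays (chromosome 8, 87228531 to 87228590, plus strand). It measured -1.54, -1.60 and -1.82 in DN3, 0.79, -2.39, -1.74 and -0.41 in tg DP, -2.54, -1.27 and -2.16 in wt DP, -2.21, -2.26 and -2.25 in SP4 and -1.91, -1.34 and -2.26 in SP8 cells. The B cell arrays gave -0.45 and -1.57 in tg, -3.12, -0.89 and -2.41 in IgM-positive and -1.37, -1.17 and -0.61 in IgM-negative cells. The tg DP arrays spread over more of the scale than those of any other group, with the top value on tg DP 4, and covered the whole wt DP range but for array 2. The mean of tg DP minus that of wt DP was 1.05 ± 0.60 (SE, adjusted p = 1), with -0.94 ± 1.42 (SD, n = 4) in tg DP and -1.99 ± 0.65 (SD, n = 3) in wt DP. Within slide 2, without tg DP 4, it was 0.47. DN3 cells averaged -1.66 ± 0.15 and IgM-negative fetal liver B cells -1.05 ± 0.40 (SD, n = 3 each), which did not overlap and differed by -0.61 ± 0.65 (SE, adjusted p = 1). Of all neighbours in the order of group means of the 13 probes, this was the pair that stood apart. No slide held arrays of both groups, so slide and cell type cannot be told apart. With slide as a fixed block in the fit the sign reversed, to 1.94.

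Tal1, the stem cell helix-loop-helix factor, had the smallest pooled SD of the 13 probes, at 0.41. It measured -0.29, -0.33 and 0.61 in DN3, -1.04, -0.37, -0.37 and -0.64 in tg DP, -0.44, -0.22 and 0.19 in wt DP, -0.75, 0.21 and -0.45 in SP4 and -0.11, -0.20 and 0.07 in SP8 cells. It measured -1.48 and -0.26 in tg B cells, -0.61, -0.34 and -0.44 in IgM-positive and -0.12, -0.07 and -0.73 in IgM-negative B cells. All 8 groups overlapped a neighbour in the order of means, and tg DP differed from wt DP by -0.45 ± 0.31 (SE, adjusted p = 1). Mature thymocytes are known to carry little Tal1, yet the probe was well above background on every SP4 and SP8 array. Tal1, Lyl1 and Lmo2 also serve red cell precursors. The list of 7 erythroid markers averaged -2.35 to -1.96 over the wt thymocyte groups and -2.20 in tg DP. It averaged -2.67, -2.10 and -2.35 in tg, IgM-positive and IgM-negative B cells. The globin gene Hba-a1 was well above background on every array, with group means from -0.12 in SP4 to 0.59 in IgM-negative B cells. Klf1, Alas2, Epor and Gata1 were also well above background on every array. The globin gene Hbb-b1 was so on 0 of 3 DN3 and 0 of 3 IgM-positive arrays, and on 1 or 2 arrays of each other group. The part of such cells, or of the A-rich probe end shown above, in the Tal1 reading was not tested.

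Mef2c, a MADS-box factor of lymphoid progenitors and B cells, measured -1.84, -1.79 and -2.62 in DN3, -1.14, -0.95, -1.02 and -2.32 in tg DP, 0.57, -1.58 and -1.96 in wt DP, -2.18, -1.69 and -2.32 in SP4 and -1.53, -1.08 and -0.99 in SP8 cells. B cells had values of -0.80 and -2.26 in tg, -1.66, -1.63 and -2.27 in IgM-positive and -1.70, -0.88 and -2.03 in IgM-negative cells. B cells were not set apart from thymocytes, and wt DP 2 alone lay above 0. The wt DP mean minus the DN3 mean was 1.09 ± 0.55 (SE, adjusted p = 1) and the SP4 mean minus the wt DP mean was -1.08 ± 0.55 (SE, adjusted p = 0.814). Both comparisons share the wt DP arrays and so the high array 2, without which they were 0.31 and -0.30.

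Hhex, a homeobox gene used in early lymphoid cells (chromosome 19, 37514969 to 37515028, plus strand), was dim but well above background on all 24 arrays. It measured -3.68, -4.17 and -2.49 in DN3, -3.26, -4.98, -3.03 and -4.55 in tg DP, -3.35, -4.77 and -3.23 in wt DP, -4.22, -3.93 and -2.90 in SP4 and -3.32, -3.48 and -4.16 in SP8 cells. In B cells it measured -5.17 and -4.36 in tg, -4.56, -1.89 and -4.02 in IgM-positive and -3.38, -3.99 and -3.49 in IgM-negative cells. The tg B arrays lay below all IgM-negative fetal liver arrays, with a difference of -1.15 ± 0.75 (SE, adjusted p = 0.435) between means of -4.76 ± 0.57 (SD, n = 2) and -3.62 ± 0.32 (SD, n = 3).

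Meis1, the homeodomain partner of Hox proteins (chromosome 11, 18780695 to 18780754, minus strand), measured -2.27, -2.19 and -2.57 in DN3, -3.09, -2.11, -1.83 and -1.76 in tg DP, -2.19, -3.02 and -2.66 in wt DP, -2.05, -2.11 and -2.09 in SP4 and -2.10, -2.26 and -0.87 in SP8 cells. Among B cells the values were -2.99 and -2.29 in tg, -2.36, -2.56 and -2.65 in IgM-positive and -2.81, -1.93 and -2.72 in IgM-negative cells. The SP4 arrays were close together and lay above all wt DP arrays, with a difference of 0.54 ± 0.38 (SE, adjusted p = 0.903), and SP8 minus wt DP was 0.88 ± 0.38 (SE, adjusted p = 1), with array 15 the highest, and 0.44 without it. No slide held both sides of either comparison, so slide and cell type cannot be told apart. With slide as a fixed block in the fit the differences were 1.14 for SP4 and 1.35 for SP8.

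Hoxa9, which binds DNA with Meis1, was read by 2 probes that are 1430 bases apart. The brighter one (chromosome 6, 52174165 to 52174224, minus strand) measured -1.41, -1.77 and -1.99 in DN3, -1.97, -1.70, -1.70 and -2.08 in tg DP, 0.02, -1.46 and -2.12 in wt DP, -1.88, -2 and -1.41 in SP4 and -1.96, -1.79 and -2.46 in SP8 cells. The B cell arrays gave -1.91 and -1.71 in tg, -1.89, -2.17 and -2.08 in IgM-positive and -0.87, -1.65 and -1.64 in IgM-negative cells. The other probe (chromosome 6, 52175595 to 52175654, minus strand) ranged from -2.65 to -0.64. Over 24 arrays the probes correlated with r = 0.23 and rho = 0.26 (permutation p = 0.28 and 0.21, adjusted 0.47 and 0.43; r = 0.21 without the 2 farthest arrays), and with 0.27, 0.79 and -0.04 within slides 2, 3 and 4 (7 arrays each), so array-to-array movements of one were not seen on the other overall. Both nevertheless had tg B arrays below all fetal liver IgM-negative arrays, with differences of -0.43 ± 0.43 (SE, adjusted p = 0.624) and -0.50 ± 0.41 (SE, adjusted p = 0.543). SP8 minus wt DP was -0.88 ± 0.38 and -0.57 ± 0.37 (SE, adjusted p = 1 for both), with no overlap on the second probe. Slide and cell type cannot be told apart in this comparison. Without wt DP 2, the high array, the difference on the brighter probe was -0.28. Likewise, without IgM-negative array 16 that probe's difference of tg from fetal liver IgM-negative B cells was -0.17.

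Bcl11a, the zinc-finger repressor needed for B cells and turned down in T cells, was read by 3 probes whose readings did not follow each other. The brightest (chromosome 11, 24074059 to 24074118, plus strand) measured -0.34, -0.94 and -0.62 in DN3, -0.60, -0.43, -0.08 and -0.48 in tg DP, 0.05, -0.42 and -0.10 in wt DP, -0.30, 0.12 and -0.72 in SP4 and -0.10, -0.14 and -0.59 in SP8 cells. B cells had values of 0.10 and -2.84 in tg, -0.53, -0.55 and -1.29 in IgM-positive and -0.41, -0.68 and -0.78 in IgM-negative cells. B cells were thus not above thymocytes, and the low value was that of tg B 23, the dimmest array. Tg minus fetal liver IgM-negative B cells was -0.74 ± 0.53 (SE, adjusted p = 0.478). Without tg B 22, which leaves the dimmest array as the whole tg group and assumes that it varies like the other groups, it was -2.21 ± 0.36 (SE, adjusted p = 0.000729) among 8020 probes called.

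The second Bcl11a probe (chromosome 11, 24073114 to 24073173, plus strand) lies 945 bases from the first. It measured -4.05, -3.37 and -3.88 in DN3, -4.18, -3.11, -3.46 and -3.76 in tg DP, -3.88, -3.82 and -3.62 in wt DP, -3.14, -3.02 and -1.91 in SP4 and -4.02, -3.24 and -2.65 in SP8 cells. In B cells it measured -4.93 and -3.81 in tg, -5.29*, -3.12 and -3.87 in IgM-positive and -4.28, -3.69 and -4.67 in IgM-negative cells. All SP4 arrays lay above all wt DP arrays, with means of -2.69 ± 0.68 and -3.78 ± 0.13 (SD, n = 3 each) and a difference of 1.09 ± 0.50 (SE, adjusted p = 0.765). These groups shared no slide, so slide and cell type cannot be told apart. Over 12 wt thymocyte and 6 fetal liver B arrays it averaged -3.38 ± 0.64 and -4.15 ± 0.77 (SD), a difference of 0.77 ± 0.31 (SE, adjusted p = 0.315), with the B cell mean on the low side. Only slide 1 held both sides, with 1 array of each. Over the other settings this difference ran from 0.37 with normexp to 1.67 with slide as a fixed block.

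The third Bcl11a probe measured -4.15, -5.27 and -5.60* in DN3, -5.98*, -4.33, -5.30* and -7.37* in tg DP, -5.22, -4.56 and -4.52 in wt DP, -5.70*, -5.55* and -4.62 in SP4 and -5.23*, -5.01* and -5.89* in SP8 cells. Among B cells the values were -4.67 and -3.33 in tg, -4.13, -5.65* and -4.61 in IgM-positive and -4.65, -4.37 and -3.26 in IgM-negative cells. It was well above background on 7 of 16 thymocyte arrays and on 7 of 8 B cell arrays, whereas on the second probe fetal liver B cells had the lower mean. The pairs of Bcl11a probes correlated with r = -0.01 (23 arrays, rho = -0.03), -0.53 (14 arrays, rho = -0.32) and -0.25 (13 arrays, rho = -0.02), with permutation p of 0.96, 0.063 and 0.4 for r and adjusted p of 0.96, 0.16 and 0.5. Without the 2 farthest arrays r was -0.18, -0.26 and -0.45. Which Bcl11a transcripts each probe reads was not determined here.

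**Figure D2:**
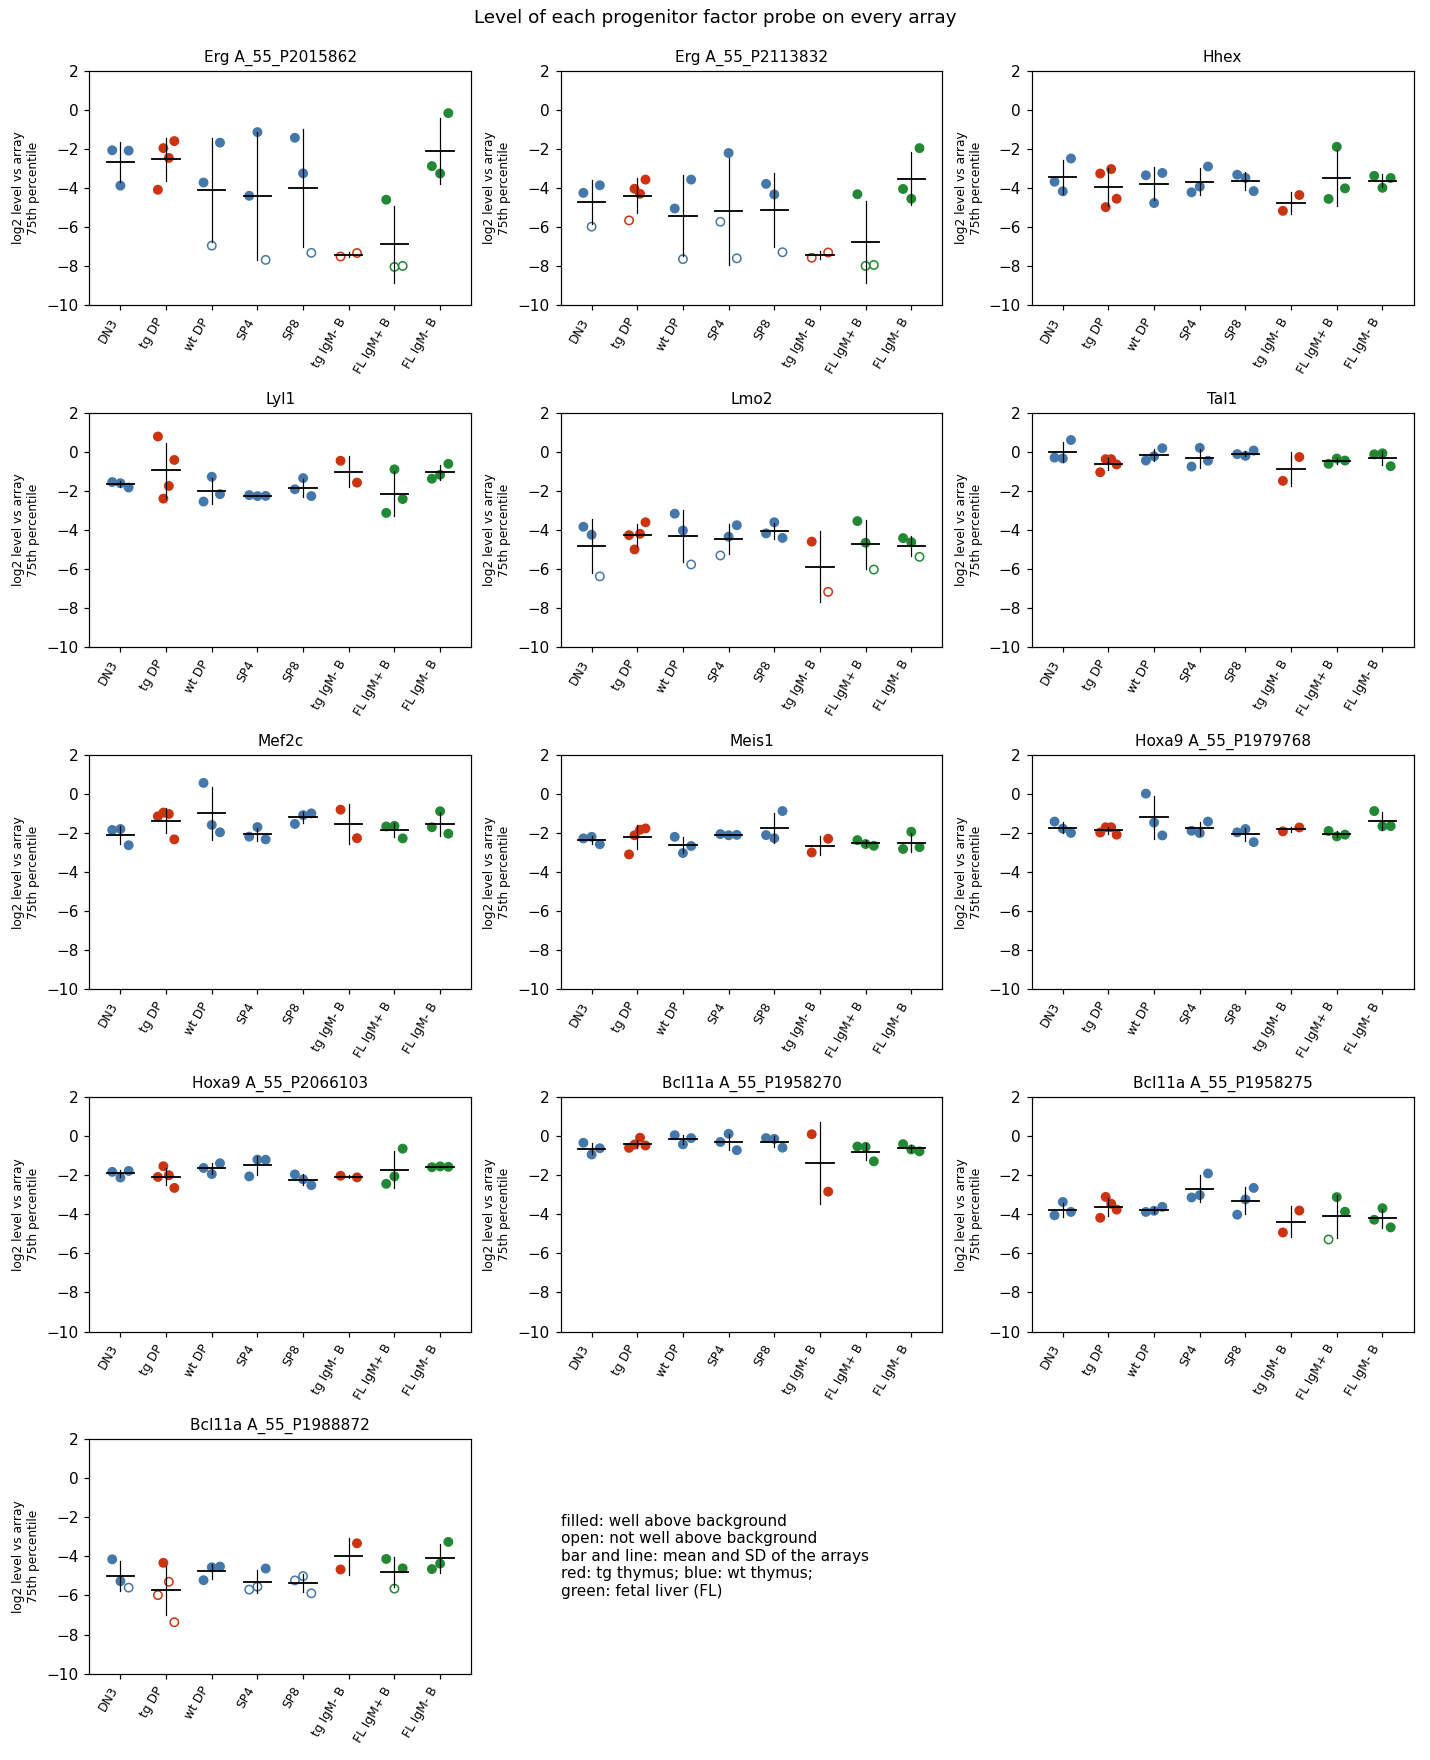
Level of each of the 13 probes (y axis, log2 relative to the array's 75th percentile, same scale in every panel) on the arrays of the 8 groups (x axis). Points are arrays, open where the probe was not well above background, horizontal bars are group means and vertical lines the SD; the Erg panels reach from -0.17 down to -8.04, while the Tal1 panel stays between -1.48 and 0.61.

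**Figure D3:**
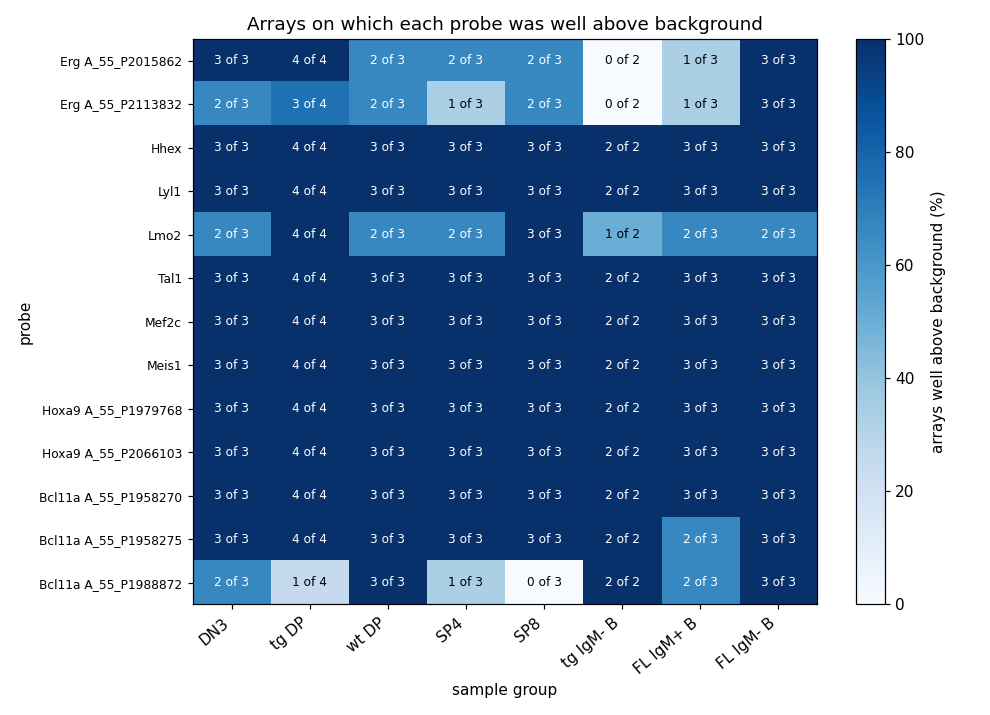
Number of arrays on which each of the 13 probes (rows) was well above background, by sample group (columns), with the shade as the share of the group's arrays. Both Erg probes show 0 of 2 in tg B and 3 of 3 in IgM-negative fetal liver B cells, and 9 probes show full or nearly full rows. For the second Erg probe the 3 of 3 was fixed by the filter.

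Set against the spread within groups, the order of levels over the 8 groups was loose for every member. The span of group means was 5.32 for the first Erg probe, against a pooled SD of the arrays within groups of 2.13, which is above that of 99.2% of all probes tested, and 3.92 against 1.74 for the second. Both Erg spans end in tg B signal that was not well above background, and their SDs include such values. They are therefore no measured sizes. For the other members the span was 0.74 to 1.82 and the pooled SD 0.41 to 1.02. Of the 7 neighbour pairs in each probe's order, a step larger than the pooled SD was found once for the first Erg probe, between SP4 and IgM-positive B cells, and once for Lmo2, between DN3 and tg B cells. On both Erg probes tg B cells were at the bottom and IgM-negative fetal liver B cells at the top. The second probe entered the fit only through the IgM-negative group, so its order is no support of its own. Tg B cells were also at the bottom on the probes of Hhex, Lmo2, Tal1 and Meis1 and on the first 2 of Bcl11a. That makes 8 of 13 probes, where 36.1% of all probes had tg B cells lowest. Erg and Bcl11a each count with 2 probes here, and probes of 1 gene are not independent. The tg B means rest on 2 arrays, 22 and 23, which on some probes lay far apart. They measured -4.59 and -7.16* on Lmo2, 0.10 and -2.84 on the brightest Bcl11a probe and -1.48 and -0.26 on Tal1. On both Erg probes the IgM-positive arrays 20 and 21 lay below both tg B arrays, all of them not well above background. Tg B cells were at the top on the third Bcl11a probe, 1 of 13 probes with 19.2% of all probes, and second highest on Lyl1.

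Of the 13 probes, 0 passed the threshold in any of the 9 comparisons of the design (limma, adjusted over all probes). This count has to be read against the background, since few probes of any kind passed. The share of all probes called was 0.034% for tg against fetal liver IgM-negative B cells, 0.0321% for wt thymocytes against fetal liver B cells, 0.00566% for the difference between the tg effects in DP and B cells, and 0% in the other 6 comparisons. At an unadjusted p under 0.05, 2 of the 13 probes passed for tg against fetal liver IgM-negative B cells (both Erg probes), where 16.5% of all probes did. For IgM-positive against IgM-negative cells 2 passed (both Erg probes), where 7.33% did. The second Erg probe had passed the filter only through the IgM-negative group. In SP8 against wt DP 2 members passed (Meis1 and the brighter Hoxa9 probe; 2.28% of all probes), and 1 did in SP4 against wt DP (second Bcl11a probe; 6.38%) and in thymocytes against fetal liver B cells (the same probe; 12%). In tg against wt DP, wt DP against DN3 and DN3 against IgM-negative B cells 0 did, against 3.15%, 2.06% and 2.91% of all probes, and for the difference of the tg effects 2 did (both Erg probes), against 9.22%.

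Counts of probes whose arrays did not overlap between groups were set beside the share of all probes in the same way. For tg against fetal liver IgM-negative B cells, 5 of the 13 member probes did not overlap (both Erg probes, Hhex and both Hoxa9 probes), with 33.3% of all probes. The second Erg probe had passed the filter only through the IgM-negative group, so it adds no support of its own to this count. For IgM-positive against IgM-negative cells it was 2 of 13 (the first Erg and the brighter Hoxa9 probe), with 14% of all probes. SP4 against wt DP had 2 of 13 (Meis1 and the second Bcl11a probe, with 15% of all), SP8 against wt DP 1 of 13 (the second Hoxa9 probe, with 10.7%) and DN3 against IgM-negative B cells 2 of 13 (Lyl1 and the second Hoxa9 probe, with 16.1%). No slide held both sides of any of these comparisons. Tg against wt DP, wt DP against DN3 and thymocytes against fetal liver B cells had 0 of 13, with 6.48%, 11.6% and 0.325% of all probes. In no comparison did the members stand far above these shares, and probes of 1 gene are not independent.

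As to direction, 3 of the 13 member probes had a positive and 10 a negative difference for tg against fetal liver IgM-negative B cells. Of all probes, 34.2% had a positive one, and the median was -0.50 for member probes and -0.27 for all probes. For IgM-positive against IgM-negative cells it was again 3 and 10, where 33.2% of all probes had a positive one, with a median of -0.17 for members and for all probes. Both comparisons share the IgM-negative arrays. Members split 6 up and 7 down for tg against wt DP (median -0.17, all probes -0.07) and for wt DP against DN3 (-0.01, all probes 0.03), 5 and 8 for SP4 against wt DP (-0.15, all probes -0.07), 8 and 5 for SP8 against wt DP (0.12, all probes -0.02), 4 and 9 for DN3 against IgM-negative B cells (-0.34, all probes -0.02), and 9 and 4 for thymocytes against fetal liver B cells (0.11, all probes 0.07).

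The tg effect was compared between lineages as the tg minus wt difference in DP cells minus the tg minus fetal liver difference in IgM-negative B cells. For the first Erg probe the tg effect was 1.59 ± 1.54 (SE) in DP cells, and in B cells it was the bound given above, at least 8.70-fold lower in tg. The difference between the effects therefore has no measured size, and its adjusted p was 0.422. Within slide 2 the DP difference was 2.11, and without wt DP 3, the wt DP array with no Erg signal, it was 0.17. For the second probe, whose tg effect in B cells is likewise a bound, the adjusted p was 0.478. Neither passed, and the comparison groups are not alike, since the wt DP cells came from thymus and the wt B cells from fetal liver, so for B cells the organ and the genotype cannot be told apart.

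**Figure D4:**
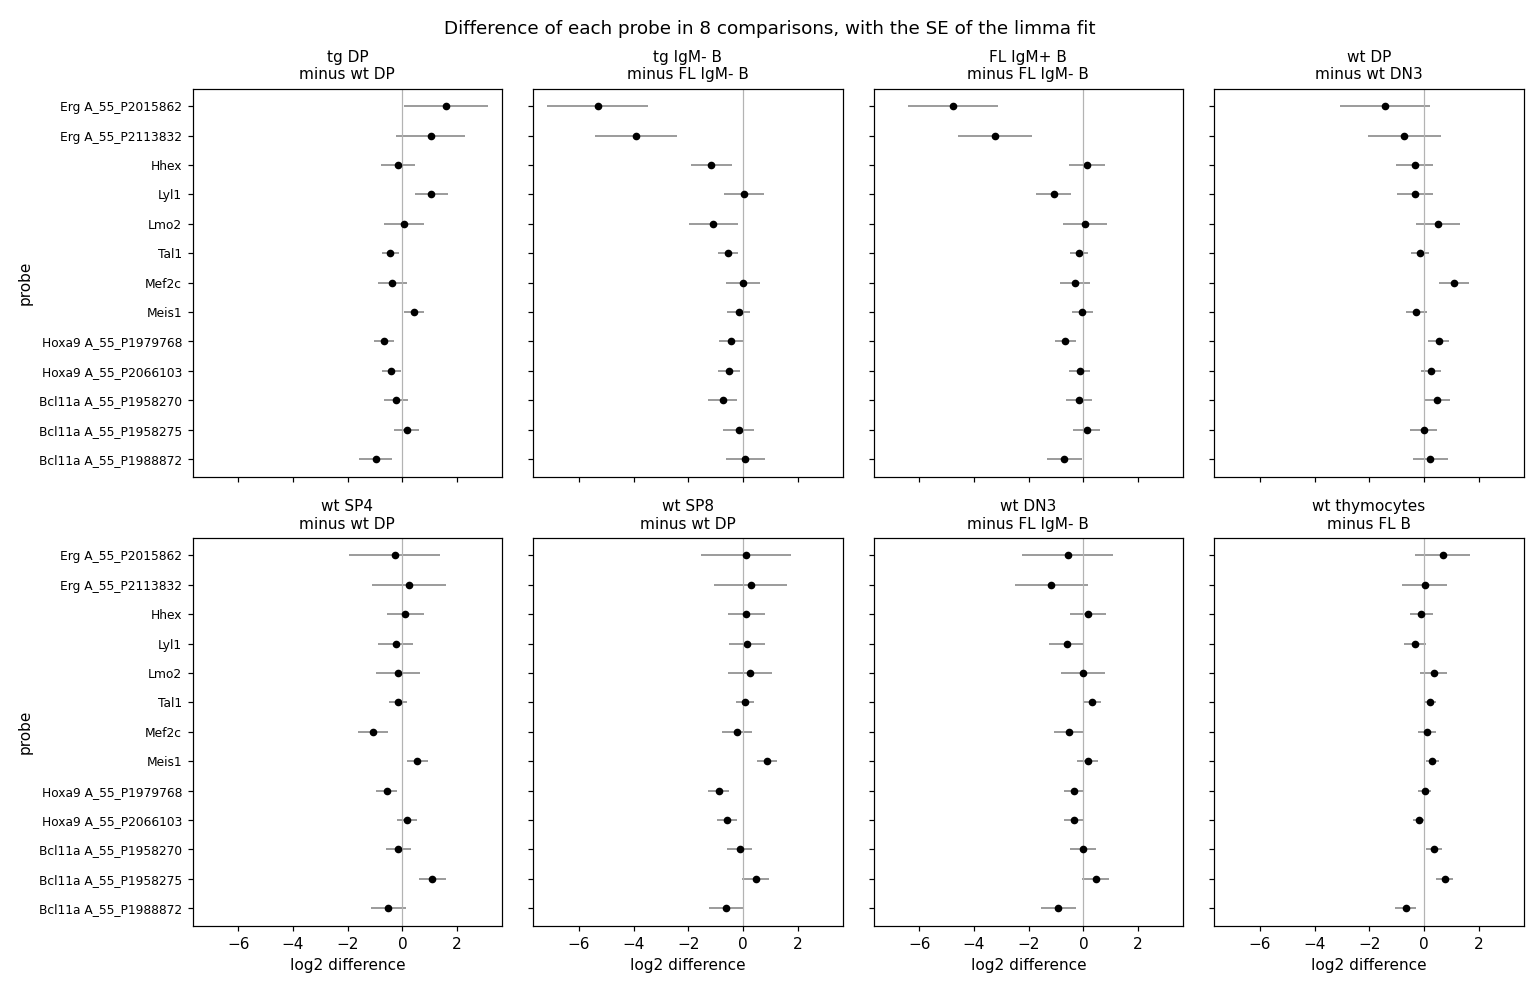
Difference of each of the 13 probes (rows) in 8 comparisons (panels), as log2 with the first-named group minus the second, with the SE of the limma fit as bars. The Erg probes lie far to the left where tg or IgM-positive B cells are set against IgM-negative fetal liver B cells (the first probe at -5.32 and -4.77), with bars that are also the longest.

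Genes named together with the members in stem and progenitor cells, a list of 18 of which 17 were on the array (22 probes), also had 0 probes past the threshold in all 9 comparisons. For tg against fetal liver IgM-negative B cells 7 probes had a positive and 15 a negative difference, and 34.2% of all probes had a positive one. Kit, the stem cell factor receptor, averaged 0.27 in tg and -1.42 in fetal liver IgM-negative B cells (1.69 ± 0.46 SE, adjusted p = 0.127). Myb, a factor of proliferating progenitors, averaged -5.59 and -3.71 (-1.88 ± 0.66 SE, adjusted p = 0.193), and Cd34, a surface sialomucin of progenitors, -4.10 and -2.95 (-1.15 ± 0.49 SE, adjusted p = 0.262). For these probes of Myb and Cd34 only 1 tg B array of 2 had the flag. Another Cd34 probe, at 0.44 in wt DP cells, was not among the 3 probes with the smallest unadjusted p in this comparison. Hlf, a stem cell bZIP factor, was the gene of this list with the smallest unadjusted p in both steps from DP cells, at -1.42 in SP4 and -1.58 in SP8 against -2.47 in wt DP (1.05 ± 0.36 and 0.89 ± 0.36 SE, adjusted p = 0.629 and 1). No slide held both sides of either step.

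Partner proteins and close relatives of the members were a list of 19 genes, of which 18 were tested (29 probes), and again 0 probes passed in any comparison. Tcf12, an E protein that pairs with Tal1 and Lyl1, averaged -5.51 in tg and -1.72 in fetal liver IgM-negative B cells, a difference of -3.79 ± 0.70 (SE) whose adjusted p of 0.0557 was just outside the threshold. Pbx2, a partner of Meis1 and Hoxa9, averaged -6.01 and -2.20 in a fit with adjusted p = 0.161, and was well above background on 0 of 2 tg B arrays, so it was at least 8.15-fold lower in tg B cells. Runx1, which acts with Erg and Tal1 in stem cells, averaged -5.05 and -2.88 (-2.17 ± 0.85 SE, adjusted p = 0.23). These probes of Tcf12 and Runx1 were well above background on 1 of the 2 tg B arrays. Another Tcf12 probe, at -4.77 in fetal liver IgM-negative B cells, was not among the 3 probes with the smallest unadjusted p for tg against these cells. For that comparison 12 of the 29 probes had a positive and 17 a negative difference. Gata3, the T lineage factor, averaged -1.65 in SP4 and -1.71 in SP8 against -3.87 in wt DP cells (2.22 ± 0.51 and 2.17 ± 0.51 SE, adjusted p = 0.302 and 1). Slide and cell type cannot be told apart in either comparison. Gata1, the erythroid factor that joins the Lmo2 complex, averaged 0.18 in IgM-positive and -0.94 in IgM-negative fetal liver B cells (1.12 ± 0.36 SE, adjusted p = 0.54).

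For each member up to 2 genes with the most alike pattern over the 24 arrays are given among 17854 genes, as a description only, since arrays share slide and signal quality and the best of so many is high by selection. For Erg they were Exoc5 (r = 0.82) and Adam12 (0.79), for Hhex Vmn1r220 (0.76) and Kmo (0.72), and for Lyl1 Epha10 (0.81) and Adra2c (0.78). For Lmo2 they were Nlrp4e (0.80) and Adam24 (0.78), for Tal1 Apoa2 and Ica1 (0.78 each), for Mef2c Cdkn1a and Helt (0.71 each), and for Meis1 Eif6 (0.80) and Cblb (0.73). For Hoxa9 they were Phlda3 and Lbx1 (0.74 each), and for Bcl11a Nck1 was named (0.89). None of the other 8 members was among the 2 nearest of any member.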

How the data were processed

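Per the file headers, the deposited spot files come from Feature Extraction 10.7.3.1 and give each spot's brightness as an intensity, of which the processed signal already had background subtracted by that program, beside flags for uniformity, outliers, saturation and background. A deposited matrix gives the authors' log2 values. Its columns have medians near 7.93 and kept the order of each array's own signals (Spearman correlation of 1), and it was used as an alternative. The 3671 control spots of 62976 were dropped, 248 non-uniform and 2851 population-outlier values became missing, and replicate spots were averaged. Levels are log2 processed signals less the 75th percentile of that array. Probes that were flagged well above background throughout at least 1 group were kept (95.2%). limma 3.58.1 in R 4.3.3 (lmFit, eBayes), tested on simulated data first, fitted the 8 group means without a covariate, and p-values were adjusted by Benjamini-Hochberg over all probes kept. The number of arrays limits the precision.

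Named were all members, with values per array for a gene's brightest probe and for other probes whose group means spanned over 1 log2 unit, the 2 nearest genes of each member and, of the lists, at most 3 genes with the smallest unadjusted p. A nearest gene that falls under this rule is not reported here. Members, lists and comparisons were chosen with earlier results of these data known. Where a probe was below that flag on all arrays of a group, its fold is a bound, with each dim array set at its lowest flagged signal or at the probe's own value, whichever is higher. Alternatives changed the background correction, scaling, filter, probe choice, slide, array weights, shared title numbers, groups in the fit and single arrays.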

Additional observations from a re-analysis of the deposited data

Results flagged for a closer look

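Mef2c, the MADS-box factor of lymphoid progenitors, measured -2.32 on tg DP array 6B, while the other tg DP arrays lay between -1.14 and -0.95. The gap was 0.861 of the group's range, above Dixon's 95% critical value for 4 arrays, which chance passes in about 1 of 20 groups. All 13 probes were checked this way in tg DP cells and only this one passed, so a pass by chance would not be unusual. The array shares its title number with 6 and 6A, whose values were -0.95 and -1.02.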

How the results depend on the processing

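Over 117 differences of the members (13 probes in 9 comparisons), recomputed under 13 other settings and 24 fits without 1 array each (2421 values), the count of members past the threshold was 0 in every comparison and setting except without tg B 22, where it was 1 in 2 comparisons: leaving out single arrays gave 0 to 1 for tg against fetal liver IgM-negative B cells and 0 to 1 for the difference of the tg effects. The probe was the brightest of Bcl11a, at -2.21 ± 0.36 (SE, adjusted p = 0.000729 by limma, with 8020 of all probes called) and 1.97 ± 0.44 (SE, adjusted p = 0.0103, with 4239 called); without the arrays that stand apart (tg B 23, IgM-positive 21 and tg DP 4), a setting chosen after seeing the data, its difference was 0.72. Of the 117 differences 45 kept their sign in all settings and 72 changed it in at least 1; of these 72 the brightest Bcl11a probe was called in those 2 comparisons without tg B 22, and none was called with all arrays. For tg against fetal liver IgM-negative B cells the first Erg probe ranged from -5.90 to -1.85 and the second from -4.43 to -0.86, the smaller sizes with normexp, and for IgM-positive against IgM-negative cells they ranged from -5.91 to -1.94 and from -4.44 to -0.79. The count over all probes for tg B cells was 18, 0 to 97 under other settings and 7 to 8020 without 1 array; for thymocytes against fetal liver B cells it was 17, 0 to 131 and 0 to 193; for SP4 against wt DP 0, 0 to 51 and 0 to 3; for the difference of the tg effects 3, 0 to 4 and 0 to 4239; for IgM-positive cells 0, 0 to 9 and 0 to 16. Tg DP (0 to 8) and DN3 against IgM-negative cells (0 to 12) had calls only under other settings, and wt DP against DN3 and SP8 against wt DP had none. The median of all probes for tg against fetal liver IgM-negative B cells was -0.27, and with other scaling it was -0.04 (quantile), 0.03 (median scaling), -0.03 (the authors' series matrix values) and -0.08 (normexp). The causes were not tested. No paired analysis was possible because no replicate number is shared between groups. Signal near background limits the Erg and Lmo2 probes and the dimmest Bcl11a probe.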
